A study of Mus musculus with 4 samples.

Results

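The transcription factors that set hepatocyte identity were followed in liver RNA from mice with and without Brg1 in their hepatocytes. They are 9 genes, *Hnf4a*, *Nr5a2*, *Foxa1*, *Foxa2*, *Foxa3*, *Cebpa*, *Cebpb*, *Onecut1* and *Prox1*, named for their role and not by a cutoff on these values, although earlier results of these data were known when they were named, and all 9 were found among the 22103 entries of the deposited table. Whole liver was sequenced from 2 WT mice and 2 LKO mice, males of 8 weeks per the methods of the study, with 1 liver per library. In the LKO mice, labelled KO, floxed *Smarca4*, the gene of Brg1, is deleted by a Cre transgene under the albumin promoter. The study describes the deletion as specific to hepatocytes, and *Smarca4* in other liver cells was not measured apart here. The WT mice were littermates, and the strain background and the floxed alleles they may carry were not given in the sources used here. All mice of both groups drank alcohol for 15 days per the labels, as part of the NIAAA model of chronic feeding followed by an ethanol gavage, so no liver without alcohol was compared.

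Hepatocyte identity is held by a network of factors that bind each other's genes as well as those of secreted and metabolic proteins. HNF4A and NR5A2 are nuclear receptors, the FOXA proteins are forkhead factors that open closed chromatin, the C/EBP proteins are leucine zipper factors, and ONECUT1 and PROX1 carry homeodomains. Brg1 is an ATPase of the SWI/SNF complex, which moves nucleosomes at sites that such factors bind. The comparison of the LKO livers with the WT livers asks whether the transcripts of these factors differ once Brg1 is lost from hepatocytes under alcohol.

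The promoters of 3 factors are shown because *Onecut1* had the lowest p of the 9 genes, and *Foxa3* and *Cebpb* differed most between the 2 LKO livers. Each is the 250 bases before the RefSeq start nearest to the transcript of the entry (GRCm38.p6, gene strand, 5′ to 3′), at chr9:74861671-74861920 on the plus strand for *Onecut1*, chr7:19023540-19023789 on the minus strand for *Foxa3* and chr2:167688665-167688914 on the plus strand for *Cebpb*. Capitals mark the CCAAT box (CCAAT), the TATA box (TATAAA) and the GC box (GGGCGG), searched on both strands, and adjoining GC boxes may overlap.
Onecut1: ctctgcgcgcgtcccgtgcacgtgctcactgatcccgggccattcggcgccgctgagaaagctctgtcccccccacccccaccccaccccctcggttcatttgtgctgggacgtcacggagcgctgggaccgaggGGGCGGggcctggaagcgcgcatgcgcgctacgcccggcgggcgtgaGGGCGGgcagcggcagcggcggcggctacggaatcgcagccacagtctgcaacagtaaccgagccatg
Foxa3: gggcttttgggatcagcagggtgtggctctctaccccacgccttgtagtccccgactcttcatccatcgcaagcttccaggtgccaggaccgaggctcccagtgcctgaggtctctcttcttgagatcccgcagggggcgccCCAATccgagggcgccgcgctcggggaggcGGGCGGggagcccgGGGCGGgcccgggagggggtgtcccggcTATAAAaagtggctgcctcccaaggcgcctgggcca
Cebpb: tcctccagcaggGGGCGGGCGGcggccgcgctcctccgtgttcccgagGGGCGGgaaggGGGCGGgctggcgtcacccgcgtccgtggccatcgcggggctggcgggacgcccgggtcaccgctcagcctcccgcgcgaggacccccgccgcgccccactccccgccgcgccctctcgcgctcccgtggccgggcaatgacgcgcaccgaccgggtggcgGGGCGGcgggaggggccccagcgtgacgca
The *Foxa3* promoter held a TATA box beginning 36 bases before the start and a CCAAT box, whereas *Onecut1* and *Cebpb* held neither. GC boxes numbered 2 for *Foxa3*, 2 for *Onecut1* and 5 for *Cebpb*. The *Cebpb* window was 81.6% G and C, more than 99.3% of 32851 promoter windows of the same length, and the *Onecut1* window 71.6%. Of the 9 factors, 4 had a TATA box (12.4% of all windows), 4 a CCAAT box (33.8%) and 5 a GC box (32.7%). In the windows of the 9 factors, letters of the factors' own motifs were searched on both strands. A FOX motif (TGTTTAC, the variant TGTTTGC or the variant TATTTAC, in 9.73% of all windows) was found in the window of *Foxa1*, and a ONECUT motif (ATTGAT, 6.72% of all windows) in that of *Foxa2*. An HNF4 motif (CAAAGTCCA, 0.384%), an NR5A2 motif (CAAGGTCA, 1.33%) and a C/EBP motif (TTGCNNAA, 9.56%) were found in none of the 9 windows. These matches describe letters in short windows and are not binding sites.

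*Smarca4* itself measured 1.78 and 1.95 FPKM in WT and 0.608 and 0.579 FPKM in LKO. Both LKO livers were below both WT livers, at 31.8% of the WT mean, as the labels imply (log2 fold change −1.50, standard error 0.34, 95% interval −2.23 to −0.78 from limma). Depth was estimated from the steps of low FPKM values, and the totals lay between 72586393 and 80916232 reads per liver. Of 12346 genes tested with limma, 121, or 0.98%, were past the threshold of the study, an unadjusted p under 0.05 with a change of more than 2-fold. They were 0.437% of all genes tested on the higher side and 0.543% on the lower. An unadjusted p under 0.05 at any size of change was reached by 247, where 617 would be expected with no difference in any gene. After Benjamini-Hochberg adjustment of the limma p-values 0 remained under 0.05. The LKO livers were less alike than the WT livers. Their log2 values differed by more than 1 in 12% of the genes tested, against 3.59% between the WT livers (10.2% and 3.21% of genes with a mean from 1 FPKM), and LKO replicate 1 was the lowest of the 4 livers for 46.6% of all genes tested. The hepatocyte markers summed to 27340 and 23212 FPKM in WT and 25845 and 28136 FPKM in LKO, and *Alb* alone lay between 10710 and 12486 FPKM.

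The 9 factors spanned a wide range of levels per transcript length, and FPKM values can be set side by side for that reason. *Hnf4a* was the most abundant, with a mean of 54.8 FPKM over the 4 livers, above 96.1% of all genes tested. *Foxa3* (27.7 FPKM), *Cebpa* (21.6 FPKM) and *Cebpb* (20.7 FPKM) followed, and these 3 could not be ordered, since their ranges over the livers overlapped. *Prox1* (11.4 FPKM) lay apart from its neighbours. *Foxa2* (7.40 FPKM) and *Nr5a2* (5.86 FPKM) had overlapping ranges, although *Foxa2* was the higher of the pair in 4 of 4 livers. *Foxa1* (1.43 FPKM) and *Onecut1* (1.23 FPKM) were lowest, overlapped, and stood near the middle of all genes tested, with 45.9% and 42.2% of them at a lower mean. The fewest reads behind a value were an estimated 239, for *Foxa1* in LKO replicate 1 and for *Onecut1* in WT replicate 2. Of the summed FPKM of the 9 factors, *Hnf4a* held 34.4% and 32.2% in WT and 39.8% and 38.1% in LKO.

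**Figure D1:**
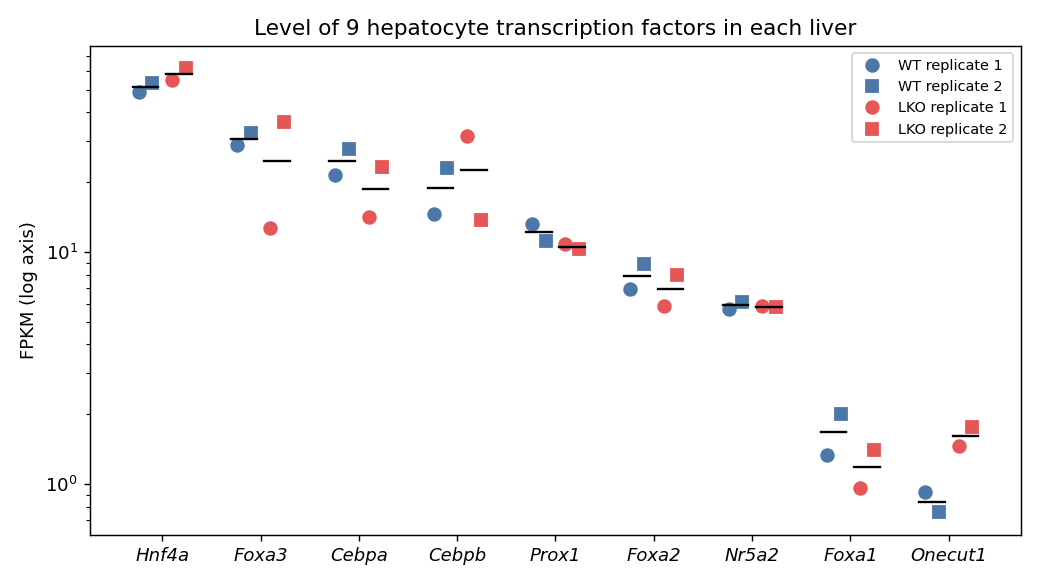
FPKM of the 9 transcription factors in each liver on a log axis, ordered by their mean, with WT livers in blue, LKO livers in red and group means as black lines. *Onecut1* is higher in both LKO livers than in both WT livers, while for *Foxa3*, *Cebpa* and *Cebpb* LKO replicate 1 lies apart from LKO replicate 2.

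None of the 9 factors was past the threshold of the study (0 of 9, against 0.98% of all genes tested). An unadjusted p under 0.05 was reached by 1 of 9, *Onecut1*, against 2% of all genes tested and 1.02% on the higher side. A count of 1 is too small to be read as an excess. The adjusted p was 1.00 for each of the 9 (limma, Benjamini-Hochberg). In 3 of 9 factors the LKO values lay outside the WT values, *Hnf4a* and *Onecut1* above and *Prox1* below, against 20.7% of all genes tested. Overlap and the order of the livers, here and below, are those of FPKM as deposited. With median-ratio rescaling the set of factors without overlap differed. *Hnf4a* and *Onecut1* stayed above the WT values, *Cebpa*, *Foxa1* and *Foxa2* came to lie below them, and *Prox1* overlapped. *Nr5a2*, *Foxa3* and *Cebpb* overlapped either way. The share of all genes tested was not recounted after the rescaling. The median log2 fold change of the 9 factors was −0.19, against −0.02 over all genes tested, with 3 above 0 and 6 below. In whole liver, fewer cells of a type and less RNA per cell cannot be told apart. With 2 livers against 2, permutation of the livers cannot give a two-sided p under 0.333, so the p-values below lean on limma. It draws the spread of each gene toward that of all genes tested, so a p does not measure the spread of that gene alone. All of the spread comes from these livers and from no other mice.

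*Onecut1*, which encodes a cut homeodomain factor of hepatocytes and bile duct cells that also acts in the developing liver and pancreas, showed the largest difference. It measured 0.927 and 0.756 FPKM in WT and 1.47 and 1.77 FPKM in LKO. Both LKO livers were above both WT livers, and the difference between the groups was larger than the difference within either group. Group means were 0.842 ± 0.121 FPKM for WT and 1.62 ± 0.215 FPKM for LKO (SD, n = 2), 1.92 times as high. The log2 fold change was 0.87 (standard error 0.34, 95% interval 0.13 to 1.60, unadjusted p = 0.0237 from limma, adjusted p = 1.00 by Benjamini-Hochberg), short of the 2-fold limit. It was 0.51 with a pseudocount of 1, which shrinks changes of low genes. It stayed between 0.74 and 1.00 with each liver left out in turn, but the unadjusted p from limma reached 0.0842 when WT replicate 1 and 0.188 when WT replicate 2 was left out. The gene lies at 74861921 to 74891781 of chromosome 9 (GRCm38, plus strand), has 2 exons and overlaps the long noncoding gene *Gm20649* on the same strand, so reads of the pair may not be separable.

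Bile duct cells also use *Onecut1*, and the summed level of their markers was lower in both LKO livers than in both WT livers. The 5 cholangiocyte markers summed to 4.10 and 4.67 FPKM in WT and 3.21 and 3.52 FPKM in LKO, with 0 of the 4 markers tested past the threshold in either direction. *Spp1* made up most of the sum, *Epcam* had a log2 fold change of 0.17, and the part of these cells in the *Onecut1* difference was not tested. Among 7732 other genes with a mean from 1 FPKM upwards, those nearest to *Onecut1* in pattern were *Atg13*, an autophagy gene, *Lysmd3* and *Sec24d*, a subunit of the COPII coat. Their centred log2 values over the 4 livers lay at root mean square distances of 0.04, 0.07 and 0.09 from those of *Onecut1*, a description of 4 values each. *Atg13*, the nearest, measured 10.6 and 8.56 FPKM in WT and 15.1 and 19.03 FPKM in LKO.

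*Hnf4a*, which encodes the nuclear receptor that many hepatocyte-specific genes depend on, measured 48.9 and 53.5 FPKM in WT and 55.0 and 61.9 FPKM in LKO. The groups did not overlap, but the gap between the highest WT liver and the lowest LKO liver was smaller than the spread inside either group. Group means were 51.2 ± 3.24 FPKM for WT and 58.5 ± 4.93 FPKM for LKO (SD, n = 2). The log2 fold change was 0.19 (95% interval −0.50 to 0.88, unadjusted p = 0.562 from limma), which leaves a fold between 0.708 and 1.84. The entry stands under the transcript on chromosome 2 from 163547187 to 163572910, with 10 exons, which begins 32 bases from the downstream of the 2 RefSeq starts of the gene, and an antisense gene, *Hnf4aos*, overlaps it. *Nr5a2*, also known as LRH-1, a nuclear receptor of bile acid and cholesterol metabolism, measured 5.70 and 6.12 FPKM in WT and 5.84 and 5.81 FPKM in LKO. Its 4 values spanned less than those of any other factor, the groups overlapped, and the log2 fold change was −0.02 (95% interval −0.73 to 0.69 from limma), turning to 0.031 without WT replicate 2.

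**Figure D2:**
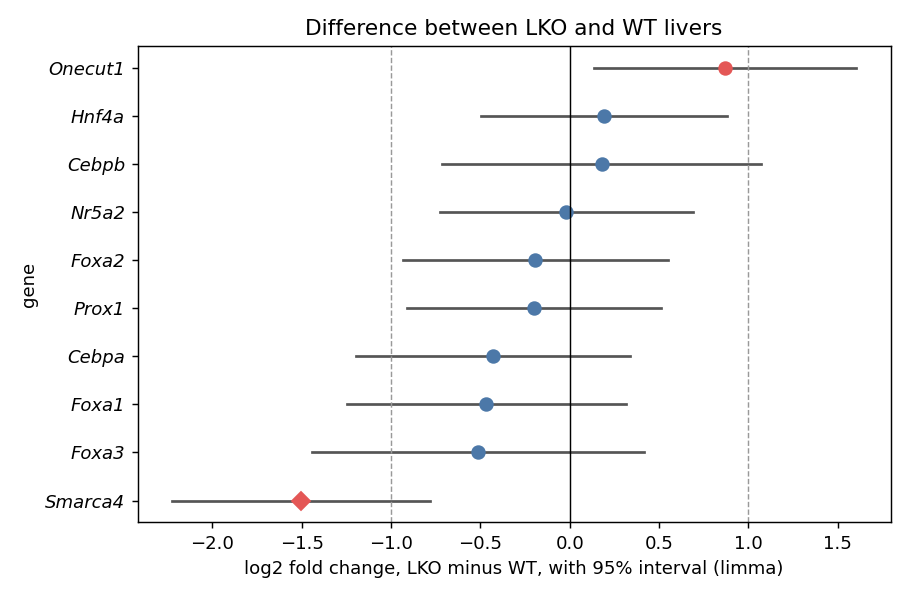
Log2 fold change of the LKO livers against the WT livers on the log2(FPKM + 0.1) scale for the 9 factors and *Smarca4* (diamond), with 95% intervals from limma as lines. Red marks an unadjusted p under 0.05 and dashed lines mark a 2-fold change. Of the factors, the interval of *Onecut1* alone, at 0.13 to 1.60, does not include 0.

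The FOXA genes encode forkhead pioneer factors, of which FOXA1 and FOXA2 act together from the start of liver development and FOXA3 is a related factor of the adult organ. *Foxa3* measured 29.0 and 32.6 FPKM in WT and 12.7 and 36.4 FPKM in LKO. LKO replicate 1 was the lowest and LKO replicate 2 the highest of the 4 livers, a 2.86-fold difference inside the group, so the LKO values enclosed the WT values. Group means were 30.8 ± 2.56 FPKM for WT and 24.5 ± 16.7 FPKM for LKO (SD, n = 2). A difference of more than 2-fold between the LKO livers was seen in 2 of the 9 factors, *Foxa3* and *Cebpb*, against 12% of all genes tested. The group log2 fold change of −0.51 (95% interval −1.44 to 0.42, unadjusted p = 0.258 from limma) turned to 0.24 without LKO replicate 1. Without LKO replicate 2 it was −1.26 and past the threshold (unadjusted p = 0.00867 from limma, adjusted p = 0.266 by Benjamini-Hochberg), in a comparison in which 450 of all genes tested passed.

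*Foxa2* measured 6.93 and 8.85 FPKM in WT and 5.87 and 7.97 FPKM in LKO. *Foxa1* measured 1.34 and 2.01 FPKM in WT and 0.959 and 1.41 FPKM in LKO. For either gene the groups overlapped and LKO replicate 1 was the lowest liver. The log2 fold changes were −0.19 for *Foxa2* (95% interval −0.93 to 0.55) and −0.47 for *Foxa1* (95% interval −1.25 to 0.31), both from limma, and that of *Foxa2* turned to 0.026 without LKO replicate 1. With each liver left out in turn, the log2 fold change of *Foxa1* ran from −0.74 to −0.19. *Foxa3* made up most of the summed FOXA level in each liver, 77.8% and 75.0% in WT and 65.1% and 79.5% in LKO. *Foxa2* accounted for 18.6% and 20.4% of it in WT and for 30.0% and 17.4% in LKO. The share of *Foxa2* was therefore high in LKO replicate 1 alone, where the summed level was 19.6 FPKM, against 37.2 to 45.7 FPKM in the other livers. *Foxa1* contributed between 3.08% and 4.90%. The 3 genes lie on different chromosomes, *Foxa3* on chromosome 7 (19013284 to 19023538), *Foxa2* on chromosome 2 (148042877 to 148046969) and *Foxa1* on chromosome 12 (57540628 to 57546121), all on the minus strand of GRCm38.

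**Figure D3:**
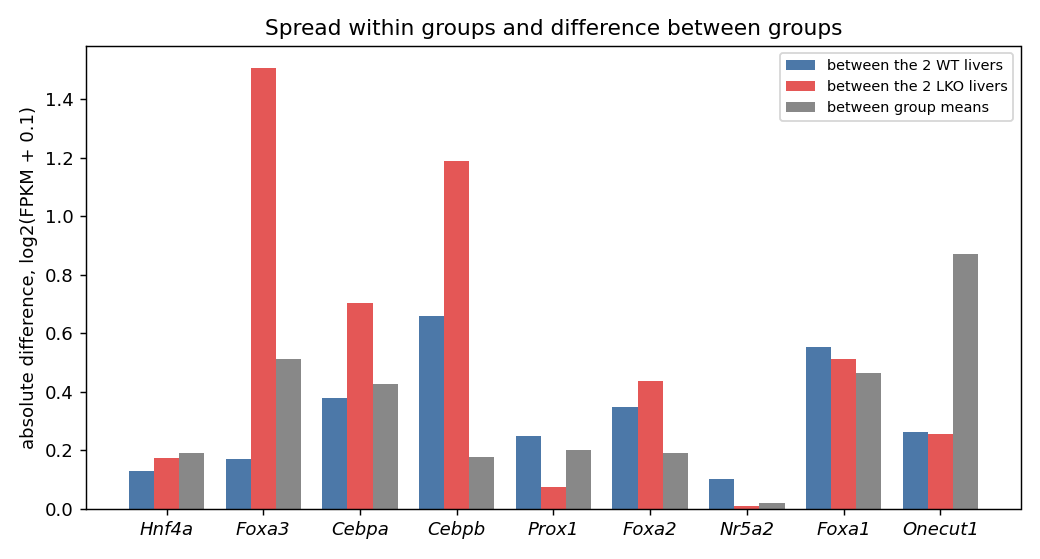
Absolute differences on the log2(FPKM + 0.1) scale between the 2 WT livers, between the 2 LKO livers and between the group means, for each factor. The bars of the LKO livers reach 1.51 for *Foxa3* and 1.19 for *Cebpb*, above the group differences of 0.51 and 0.18, while for *Onecut1* the group difference of 0.87 exceeds both within-group bars.

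C/EBPα maintains the metabolic programme of resting hepatocytes, and C/EBPβ is induced in the acute-phase response and in regeneration, so the balance of the pair is often followed in liver injury. *Cebpa* measured 21.4 and 27.8 FPKM in WT and 14.2 and 23.1 FPKM in LKO. The groups overlapped as deposited, since LKO replicate 2 lay between the WT livers. After median-ratio rescaling both LKO livers lay below both WT livers. The log2 fold change was −0.43 as deposited (95% interval −1.19 to 0.34, unadjusted p = 0.252 from limma). It was −0.41 after the rescaling (unadjusted p = 0.106 from limma). Group means were 24.6 ± 4.56 FPKM for WT and 18.7 ± 6.33 FPKM for LKO (SD, n = 2). Leaving out LKO replicate 1 gave −0.08 and leaving out LKO replicate 2 gave −0.78. *Cebpb* measured 14.6 and 23.1 FPKM in WT and 31.5 and 13.7 FPKM in LKO. Here LKO replicate 1 was the highest liver and LKO replicate 2 the lowest, 2.29-fold apart. Group means were 18.9 ± 6.02 FPKM for WT and 22.6 ± 12.5 FPKM for LKO (SD, n = 2). The log2 fold change of 0.18 (95% interval −0.71 to 1.07 from limma) turned to −0.42 without LKO replicate 1 and to −0.15 without WT replicate 1.

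The ratio of *Cebpb* to *Cebpa* within a liver does not depend on the scaling between libraries. In WT it was 0.683 and 0.831, and in LKO 2.22 and 0.594. *Cebpb* exceeded *Cebpa* in LKO replicate 1 alone, and the groups overlapped (difference of the mean log2 ratio 0.61, exact two-sided permutation p = 1 over the 4 livers). Both genes have a single exon, *Cebpa* on chromosome 7 from 35119303 to 35121928 and *Cebpb* on chromosome 2 from 167688915 to 167690418, on the plus strand of GRCm38. Antisense *Gm45091* overlaps *Cebpa*, and *Tmem189* on the opposite strand overlaps *Cebpb*. The study describes stranded libraries and the labels name a BGIseq protocol, and the strand setting of the FPKM step was not given in the sources used here, so reads of such pairs may not be separable.

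*Prox1* encodes a homeodomain factor that keeps hepatocytes apart from the bile duct fate and restrains bile acid synthesis. It measured 13.2 and 11.1 FPKM in WT and 10.8 and 10.3 FPKM in LKO. Both LKO livers were below both WT livers as deposited, but the lowest WT liver exceeded the highest LKO liver by less than the 2 WT livers differed. After median-ratio rescaling the groups overlapped. Group means were 12.2 ± 1.49 FPKM for WT and 10.6 ± 0.380 FPKM for LKO (SD, n = 2). The log2 fold change was −0.20 (95% interval −0.91 to 0.51, unadjusted p = 0.554 from limma), smaller than the difference of 0.25 between the WT livers, and it ran from −0.32 to −0.08 with each liver left out in turn. The gene lies at 190118035 to 190170714 of chromosome 1 (GRCm38, minus strand) and is overlapped by the antisense genes *Prox1os* and *Gm28172*. *Prox1* is also used by lymphatic endothelium. The 7 markers of sinusoidal endothelium, a related cell type, summed to 24.6 and 26.3 FPKM in WT and 20.5 and 23.9 FPKM in LKO, and their part in the difference was not tested.

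**Figure D4:**
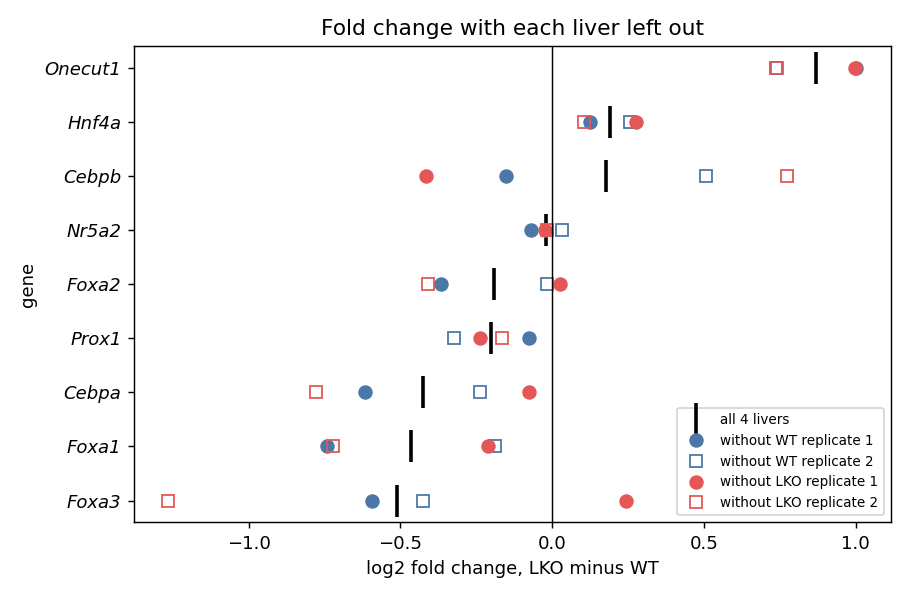
Log2 fold change of each factor with all 4 livers (black line) and with each liver left out (symbols). The values of *Foxa3* run from −1.26 to 0.24 and those of *Cebpb* from −0.42 to 0.77, whereas those of *Onecut1* stay between 0.74 and 1.00 and those of *Hnf4a* between 0.10 and 0.28.

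Other liver transcription factors were described next, 25 by name, of which 24 stood in the table, *Cebpd* was not found there, and 23 were expressed highly enough to be tested. None passed the threshold in either direction (0 of 23), and the median log2 fold change was −0.10, running from −0.41 without LKO replicate 2 to 0.17 without WT replicate 2. *Creb3l3*, a factor of fasting metabolism, was the most abundant with 51.5 and 65.8 FPKM in WT and 52.4 and 64.6 FPKM in LKO. *Ppara*, the receptor that drives fatty acid oxidation, had the highest log2 fold change (0.71, 95% interval −0.03 to 1.45, unadjusted p = 0.0592 from limma), with 1.58 and 1.80 FPKM in WT and 2.39 and 3.34 FPKM in LKO. *Nr1i3*, the receptor CAR of drug metabolism, had the lowest (−0.67), with overlapping values of 16.0 and 37.3 FPKM against 9.37 and 25.0 FPKM. LKO replicate 1 was the lowest liver for 13 of the 23 factors and for 4 of the 9, where 46.6% of all genes tested had it lowest. *Hhex* and *Nr0b2*, named here after their values were seen, were 8.50-fold and 8.74-fold lower in LKO replicate 1 than in LKO replicate 2.

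Of 14 coactivators and corepressors that these factors recruit, 0 passed the threshold, with a median log2 fold change of 0.06 that ran from −0.13 without WT replicate 1 to 0.25 without WT replicate 2. The corepressor gene *Ncor1* was the most abundant, with 12.3 and 15.6 FPKM in WT and 14.3 and 18.1 FPKM in LKO. *Ncoa2*, a coactivator gene, had the highest log2 fold change (0.60) and *Ppargc1b*, which encodes a coactivator of mitochondrial genes, the lowest (−0.66). Neither had an unadjusted p under 0.05.

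Target genes of these factors were described factor by factor. Of 10 HNF4A targets, 0 passed the threshold and the log2 fold changes ran from −0.33 (*F11*, a clotting factor gene) to 0.35 (*Otc*, of the urea cycle), with a median of 0.04. *Apoc3*, the most abundant of them, measured 1096 and 1232 FPKM in WT and 984 and 1227 FPKM in LKO. Of 8 FOXA targets, 0 passed, from −0.47 (*G6pc*, of glucose release) to 0.53 (*Tat*, which breaks down tyrosine). *Tat* measured 158 and 158 FPKM in WT and 412 and 126 FPKM in LKO, so it was high in LKO replicate 1 alone. *Igfbp1*, an insulin-repressed gene named here after its values were seen, measured 129.6 and 138 FPKM in WT and 268 and 60.2 FPKM in LKO. *Alb*, *Tat*, *G6pc*, *Pck1* and *Cps1* are also targets of the C/EBP factors, and with *Gys2* they make up the metabolic C/EBP list, of which 0 of 6 passed.

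The acute-phase genes listed as targets of the C/EBP factors varied between livers of the same genotype. In 6 of 7, both livers numbered 1 were above both livers numbered 2, a pattern of 4.07% of all genes tested, and 0 of 7 passed the threshold between genotypes. Their median log2 fold change of 0.59 ran from −0.42 to 1.48 with each liver left out in turn. *Lcn2*, which encodes an iron-scavenging protein, had the highest log2 fold change (1.01, unadjusted p = 0.177 from limma) with 842 and 116 FPKM in WT and 1175 and 337 FPKM in LKO. *Hp* (haptoglobin), the most abundant, had 3425 and 1705 FPKM against 3183 and 2406 FPKM, and *Hamp* (hepcidin) had the lowest log2 fold change, −0.35. *Cebpb* itself was lower in WT replicate 1 than in WT replicate 2 and higher in LKO replicate 1 than in LKO replicate 2. Its part in the pattern of these genes was not tested. The 6 neutrophil markers summed to 11.5 and 16.3 FPKM in the WT and LKO livers numbered 1 and to 4.21 and 7.78 FPKM in those numbered 2, although *Ly6g*, a defining marker, was listed at 0 in WT replicate 2 and was too low to be tested. Their part in the pattern of the acute-phase genes was not tested.

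Of the 7 NR5A2 targets reported here, 0 passed the threshold, with a median log2 fold change of 0.03 that ran from −0.27 without WT replicate 1 to 0.36 without LKO replicate 1. They lay between −0.41 (*Cyp7a1*) and 0.29 (*Cyp8b1*), both enzymes of bile acid synthesis. *Cyp7a1* measured 0.838 and 2.75 FPKM in WT and 0.423 and 2.82 FPKM in LKO, so in either group the liver numbered 1 was the lower and the groups overlapped. *Cyp8b1* measured 40.3 and 87.2 FPKM in WT and 79.9 and 65.7 FPKM in LKO, with both LKO livers between the WT livers. *Apom*, which encodes an apolipoprotein, was the most abundant of them (log2 fold change 0.12).

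Genes of the fetal liver and the bile duct, which adult hepatocytes hold low, came last. Of 11 genes listed, 10 stood in the table and 7 were tested, 0 passed the threshold, and the log2 fold changes ran from −0.84 (*Sox9*, a biliary and progenitor factor) to 0.17 (*Epcam*), with a median of −0.27. *Afp*, the fetal counterpart of albumin, lay between 0.123 and 0.184 FPKM, with overlapping groups. *Dlk1* was listed at 0 in 3 of 4 livers. *Spp1* was the most abundant (log2 fold change −0.27). Of the 7 macrophage markers, 2 rose past the threshold, *Cd68* and *Vsig4*, against 0.437% of all genes tested on the higher side, and *Clec4f*, a Kupffer cell marker, had an unadjusted p under 0.05 with a smaller change. Both LKO livers were above both WT livers for 6 of the 7, against 10.7% of all genes tested. *Cd68* measured 1.66 and 2.01 FPKM in WT and 3.90 and 7.01 FPKM in LKO, so both LKO livers were well above the WT livers. *Vsig4* lay at the edge of both limits (log2 fold change 1.00, unadjusted p = 0.0493 from limma). It measured 2.33 and 2.69 FPKM in WT and 2.79 and 9.32 FPKM in LKO, so LKO replicate 1 was close to the WT livers. The list summed to 30.7 and 30.6 FPKM in WT and 38.8 and 80.1 FPKM in LKO, highest in LKO replicate 2. Its part in the values above was not tested. Stellate cell markers summed to 18.5 and 22.0 FPKM in WT and 18.5 and 22.2 FPKM in LKO, and all 5 lymphocyte markers were too low to be tested.

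**Figure D5:**
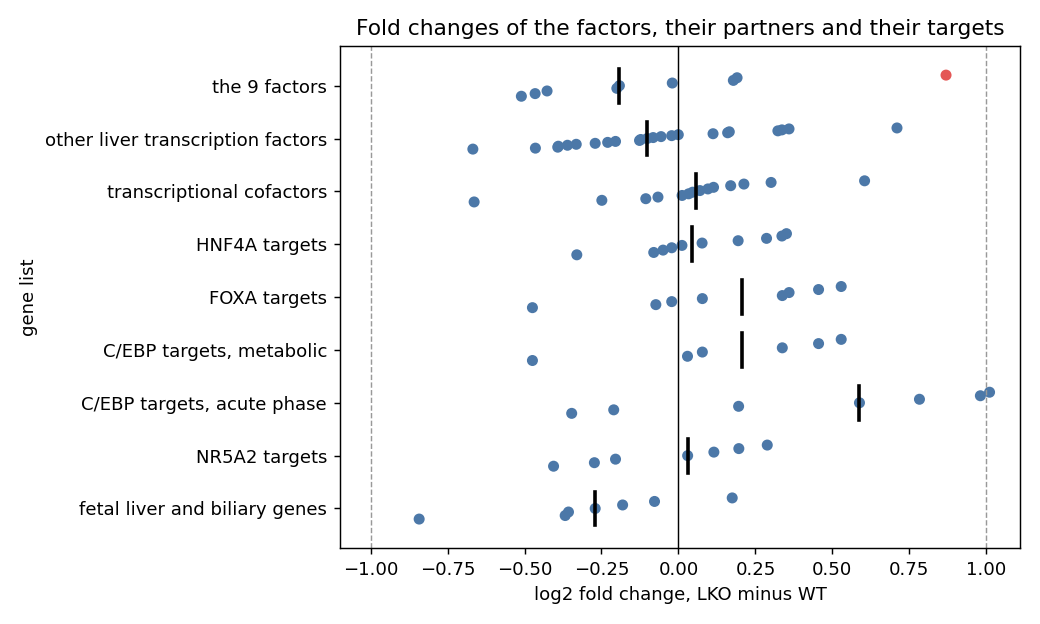
Log2 fold changes of the tested genes in each list, 1 point per gene, with list medians as black lines, an unadjusted p under 0.05 in red and dashed lines at a 2-fold change. *Onecut1* at 0.87 is the red point, and the acute-phase genes lie from −0.35 to 1.01.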

How the data were processed

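Liver RNA of 2 WT and 2 LKO mice was analysed, with genotype and replicate number taken from the sample labels. According to the methods of the study, the authors used Trimmomatic for trimming, HISAT2 for mapping to GRCm38 and Cufflinks for FPKM, while the submitters' processing notes name HISAT2 2.0.4 and StringTie 2.1.4. The deposited values are FPKM, scaled by transcript length and library total, so a change in abundant genes shifts the others. Read counts were not used here.

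The 12346 genes whose mean reached 0.1 FPKM were compared on the log2(FPKM + 0.1) scale by limma 3.58.1 in R 4.3.3 (eBayes with trend). This scale understates changes of low genes. The threshold was that of the study, with Benjamini-Hochberg adjustment over all genes tested. Transcripts of at least 2000 bases in GENCODE M21 gave the FPKM of 1 read. Between 88.6% and 89.7% of values of up to 20 reads lay within 0.1 of a whole read, so reads are estimates. The fit was tested on simulated data. Python 3.11.15 was used for the rest.

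The factors were chosen by role and not by a cutoff on the values, but they and the lists were chosen with earlier results of these data known. From the list of NR5A2 targets, 1 gene is not reported here. Named genes are the 9 factors, *Smarca4*, and per list the most abundant gene, those with the highest and lowest fold change any with an unadjusted p under 0.05, and the 3 genes nearest to *Onecut1* in pattern. *Hhex*, *Nr0b2*, *Igfbp1*, *Afp*, *Dlk1* and *Ly6g* were added after their values were seen. Alternatives were other pseudocounts, filters and scalings, eBayes without trend, a replicate block and each liver left out.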

Additional observations from a re-analysis of the deposited data

How the results depend on the processing

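With all 4 livers kept, the fold changes of the 9 factors kept their direction and their side of the threshold in 72 of 72 cases, 9 factors under 8 alternatives. The filters, eBayes without trend and the replicate block leave a fold change as it was. All 9 were under 2-fold, so these cases could not differ, and only the pseudocounts and scalings could move a factor. The number of genes past the threshold, 121, was 18 with a pseudocount of 1, 80 with no filter on low values and 68 when only genes with a mean from 1 FPKM were tested. *Smarca4* had a log2 fold change of −0.85 with a pseudocount of 1, under the 2-fold limit. The cause of these changes was not tested, although each filter changes the genes tested. With the replicate block, 108 genes and 0 of the 9 factors were past the threshold, *Onecut1* had a log2 fold change of 0.87, and no call on the factors or *Smarca4* changed. The numbers mark no shared animal, and the deviations of same-numbered livers from their group means correlated at 0.03 across genes.

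With each liver left out in turn, 78 genes (without WT replicate 2) to 552 genes (without LKO replicate 1) passed, against 231 without WT replicate 1 and 450 without LKO replicate 2. After adjustment 269 genes were under 0.05 without LKO replicate 1 and 140 without LKO replicate 2 (limma, Benjamini-Hochberg), none of the 9 factors among them. Of the factors, 0 to 1 passed the threshold (*Foxa3*, without LKO replicate 2) and 0 to 2 had an unadjusted p under 0.05. The log2 fold change ran from −0.071 to 0.031 for *Nr5a2*, from −0.41 to 0.026 for *Foxa2*, from −1.26 to 0.24 for *Foxa3* and from −0.42 to 0.77 for *Cebpb*, and the log2 ratio of *Cebpb* to *Cebpa* from −0.34 to 1.56. The median of all genes tested moved to −0.17 without WT replicate 1 or LKO replicate 2 and to 0.12 without WT replicate 2 or LKO replicate 1. A lone liver in a group was assumed to vary like the other group. With 2 livers per group the intervals are wide, and counting error was not compared with the spread between livers.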
